A study of Mus musculus with 4 samples.

Results

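The cells described here are spermatids of the mouse testis with a high mean level over 6 genes: Neurl1a, Clmn, Mex3d, Odf1, Tssk6 and Phospho1. In each of 2 libraries the 700 cells with the highest mean of the deposited values over these 6 genes were taken, and these 1400 members come from 18623 cells of those libraries and from 27060 cells of all 4 libraries. The members are 7.83% of the 8941 cells of A0 and 7.23% of the 9682 cells of A10. The number of members per library was therefore fixed by the rule, and the mean of the 6 genes is high in them by construction.

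Testes of ICR mice, an outbred stock, were dissociated with TrypLE and captured as single cells with 10x Genomics 3′ chemistry (V2), in which each captured transcript is counted once through its unique molecular identifier (UMI). A0 was the vehicle control with no alginate oligosaccharides (AOS), and A10 received AOS at 10 mg/kg body weight; dosing began in juvenile males. The other libraries were B0, from mice given busulfan alone, an alkylating drug that kills dividing germ cells, and BA10, from mice given busulfan and then AOS at the same dose. In every group the cells of several mice had been pooled into 1 library, so no value belongs to an animal and no test between groups was possible.

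Spermatids are the haploid cells that follow the meiotic divisions. They build an acrosome, replace histones by transition proteins and then by protamines, shape the nucleus with a microtubule sleeve called the manchette, and assemble a tail whose axoneme is wrapped in outer dense fibres, a mitochondrial sheath and a fibrous sheath. Transcription stops as the nucleus condenses, so many late proteins are made from transcripts that were stored earlier. Odf1 encodes a main protein of the outer dense fibres, and Tssk6 a testis-specific serine kinase needed for chromatin condensation and for sperm function. Phospho1 encodes a phosphatase of phosphocholine and phosphoethanolamine, Mex3d an RNA-binding protein of the KH-domain family, Neurl1a a RING-type ubiquitin ligase of the Neuralized family and Clmn calmin, an actin-binding membrane protein known from maturing spermatids.

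The 6 genes lie on 6 chromosomes of the mm10 build, and all are protein-coding in the GENCODE M21 annotation. Odf1 spans chr15:38219203-38226735 on the plus strand and Tssk6 spans chr8:69902184-69903518 on the plus strand. Phospho1 lies at chr11:95824499-95832140 (plus), Neurl1a at chr19:47178820-47259441 (plus), Mex3d at chr10:80380355-80387659 (minus) and Clmn at chr12:104763117-104865076 (minus). RefSeq promoter entries on GRCm38.p6 were found for 4 of the 6 genes, all but Odf1 and Mex3d. They are shown because CREM, a transcription activator of spermatids, binds the cAMP response element TGACGTCA and its core TGACG, and these letters were searched on both strands of the 150 bases before each start. TGACGTCA contains TGACG, and capitals mark the match.
Neurl1a, chr19:47178670-47178819, plus strand: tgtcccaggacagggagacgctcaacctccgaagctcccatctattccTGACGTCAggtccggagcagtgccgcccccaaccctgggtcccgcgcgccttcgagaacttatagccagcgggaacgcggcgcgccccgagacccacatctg
Tssk6, chr8:69902034-69902183, plus strand: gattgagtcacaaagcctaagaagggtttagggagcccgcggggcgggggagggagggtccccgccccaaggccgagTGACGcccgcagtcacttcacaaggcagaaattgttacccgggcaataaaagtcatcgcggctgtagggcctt
Phospho1, chr11:95824350-95824499, plus strand: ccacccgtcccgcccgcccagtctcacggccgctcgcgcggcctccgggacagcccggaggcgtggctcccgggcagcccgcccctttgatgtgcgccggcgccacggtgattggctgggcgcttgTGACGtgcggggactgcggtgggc
Clmn, chr12:104865077-104865226, minus strand: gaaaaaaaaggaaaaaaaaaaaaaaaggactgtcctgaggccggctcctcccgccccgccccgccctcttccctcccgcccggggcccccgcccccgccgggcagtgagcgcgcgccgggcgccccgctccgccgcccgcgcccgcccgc
The Neurl1a window held the whole element, 102 bases before the start. Tssk6 held the core 73 bases and Phospho1 24 bases before the start, and the Clmn window held neither run of letters. Of 32851 RefSeq promoter windows of this length, 1.36% held TGACGTCA and 13.3% held TGACG. A match is a run of letters and was not tested as a binding site.

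The score that chose the members, the mean over the 6 genes of ln(1 + 10000 times the share of the cell's UMIs), had a continuous distribution with no gap at the limit. The lowest member scored 1.0280 in A0 and 0.9843 in A10, while the highest cells left out scored 1.0278 and 0.9838. Within 0.05 of the limit lay 373 cells of A0 and 416 of A10. Members had a median score of 1.15 (A0) and 1.11 (A10), against 0.346 and 0.361 in the other cells. At the A0 limit A10 held 544 cells, or 5.62% (95% Clopper-Pearson interval 5.17 to 6.10), B0 held 1 of 4659 (0.0215%, 0.000543 to 0.1195) and BA10 held 10 of 3778 (0.265%, 0.127 to 0.486). Few cells of B0 and BA10 thus reached the A0 limit, and the median score of all cells was 0 in each. Depth was not compared for these libraries, and its part in the counts was not tested. All intervals here cover counting error only.

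**Figure D1:**
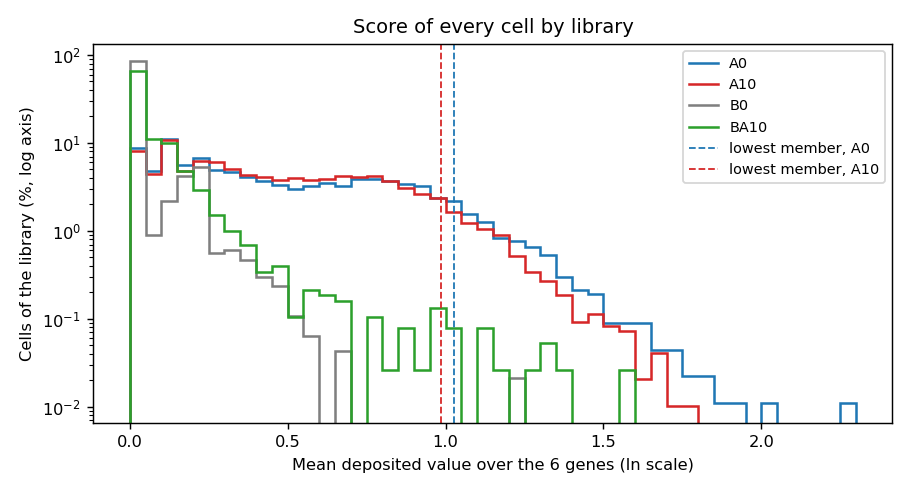
Distribution of the score (mean deposited value over the 6 genes, natural log scale, x axis) as the percent of cells of each library (y axis, log scale), for A0, A10, B0 and BA10; dashed lines mark the lowest member of A0 (1.0280) and of A10 (0.9843). The A0 and A10 curves run on across the dashed lines without a gap, and B0 and BA10 hold 1 and 10 cells beyond the A0 line.

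The members had a slightly lower depth than the other cells and held fewer genes. Their UMIs summed to 9897210 in A0 and 8482560 in A10, with a median of 11863.5 and 10127 UMIs per cell against 12761 and 11013 in the other cells. Genes per member had a median of 2359 and 2128.5, against 3388 and 3111. With every cell thinned to 5000 UMIs the medians were 1500 and 1447.5 genes in members and 2158 and 2141 in the other cells, so the difference remained at equal depth. The 700 cells per library highest in the protamine genes and Car2, some of them members, held fewer genes still, 1977.5 and 1807, or 1367 and 1327 at 5000 UMIs. Protamine transcripts reached all cells: each of the 664 A0 and 678 A10 cells highest in the spermatocyte genes Sycp1, Sycp2, Sycp3, Hormad1 and Piwil1 that were no members held a Prm1 UMI. That set, with a median of 14432 and 15096 UMIs per cell, therefore gives a background level of spermatid transcripts below. A0 and A10 share 135 cell barcodes, a count that was not compared with the number expected by chance.

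The 6 genes that chose the members are given as levels, as UMIs of the gene per 1000000 UMIs (CPM) of a set of cells summed together, with exact 95% Poisson intervals. Tssk6 stood at 1896 CPM (1869 to 1924) in A0 members and 1776 (1748 to 1804) in A10 members, against 386 and 385 in the other cells. It was the gene seen in every member, with a median of 23 and 19 UMIs per cell. A UMI of Tssk6 was also found in 79.9% and 80.6% of the other cells and in 60.5% and 63.1% of the spermatocyte set, so its share of cells says little and its level carries the difference.

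Odf1 stood at 331 CPM (320.2 to 343) in A0 members and 329 (317 to 341) in A10 members, against 100.9 and 106.7 in the other cells. A UMI was found in 98.7% and 97.4% of members, 64.6% of the other cells of each library and 32.7% and 35.5% of the spermatocyte set. Thinned to 5000 UMIs per cell these shares were 78.6% and 80.6% in members and 14.9% and 15.6% in the spermatocyte set. Phospho1 was at 192 CPM (183 to 200.5) and 157 (149 to 166) in members and at 29.3 and 26.1 in the other cells. It had a UMI in 92.6% and 90.6% of members but in 14.8% and 14.3% of the spermatocyte set.

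Mex3d was at 192 CPM (184 to 201) in A0 members and 172 (164 to 182) in A10 members, and at 53.3 and 44.6 in the other cells. Its shares of cells with a UMI were 86.1% and 84.6% in members and 24.1% and 20.2% in the spermatocyte set. The relatives Mex3a, Mex3b and Mex3c gave 0.707, 13.7 and 20.4 CPM in A0 members, with log2 ratios to the other cells of 0.59, 0.67 and -0.59. Clmn was at 129.5 CPM (122.5 to 137) and 108.7 (101.8 to 116) in members, and at 22.3 and 18.1 in the other cells. The lowest of the 6 was Neurl1a, at 32.2 CPM (28.8 to 36.0) and 25.3 (22.1 to 29.0) in members and 5.73 and 5.17 in the other cells. Neurl1a had a UMI in only 36.7% and 24.9% of members, against 8.28% and 8.85% of the spermatocyte set, so most members scored high without it.

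**Figure D2:**
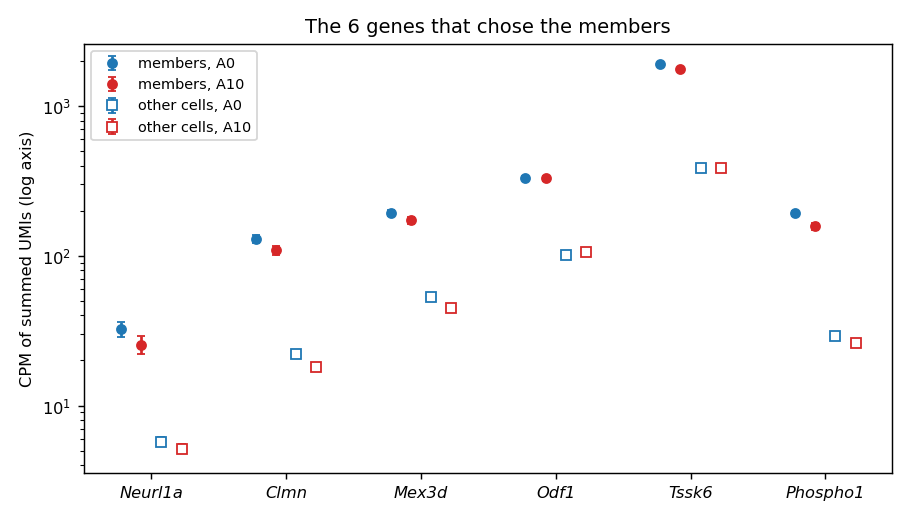
Level of the 6 genes that chose the members (x axis) in CPM of summed UMIs (y axis, log scale) for the 700 members (filled circles) and the other cells (open squares) of A0 and A10; bars are exact 95% Poisson intervals. All 6 genes lie higher in members by construction, from Neurl1a at 32.2 CPM to Tssk6 at 1896 CPM in A0 members.

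Among the members most pairs of the 6 genes did not vary together. Across the 700 members of a library, Mex3d and Tssk6 ran in opposite directions, with a Spearman correlation of -0.45 in A0 and -0.33 in A10. Tssk6 and Phospho1 ran together (0.37 and 0.21), and Mex3d against Phospho1 gave -0.31 and -0.25. The other pairs lay between -0.16 and 0.08. These correlations are across cells of 1 library, which share the library and a total of UMIs. The cells were chosen on the mean of these 6 genes, so a low value of 1 gene is tied by that choice to high values of others. The correlations, negative ones above all, are therefore a description only.

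Next, all genes were compared between members and the other cells of the same library, as log2 ratios of CPM with 1 CPM added. Since the rule used these cells, the ratios are a description with no test. Of 9352 genes seen in at least 5% of members or of the other cells, 724 (7.74%) were at least 2-fold higher in A0 members and 3720 (39.8%) at least 2-fold lower. In A10 the counts were 714 (7.63%) and 4368 (46.7%). Higher in both libraries were 627 genes, lower in both were 3510, and 0 genes were called in opposite directions. The median gene stood at -0.79 in A0 and -0.93 in A10, so a gene is read below against that median too. Counted from the median, 1746 genes were higher and 395 lower in A0, and 1857 and 184 in A10, so the share of calls that were higher went from 16.3% to 81.6% and from 14.05% to 91.0%. Leaving Prm1, Prm2, Tnp1 and Tnp2 out of the total gave 876 higher and 3033 lower in A0 and 910 and 3529 in A10.

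The genes highest in members outside the rule included protamine 2, a row of enzymes and several genes with no settled name, of which 1700080E11Rik ranked first. Prm2, the protamine that is made as a precursor, stood at 59609 CPM in A0 members and 12405 in the other cells, and at 63383 and 13052 in A10, with log2 ratios of 2.26 and 2.28. Car2, carbonic anhydrase 2, was at 1163 against 233 CPM in A0 and 1165 against 243 in A10. Glul, glutamine synthetase, was at 1150.1 against 245 CPM in A0 and 1049.9 against 227 in A10. Both enzymes were thus more than 4-fold higher in each library, with log2 ratios from 2.21 to 2.31.

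Ppp2r2b, a regulatory subunit of protein phosphatase 2A, was at 298 against 65.4 CPM in A0 members and other cells, and Prkar2a, a regulatory subunit of protein kinase A, at 749.8 against 156. Ubqlnl, a ubiquilin relative, was at 341 against 75.03 CPM. Bpifa3, of the BPI fold family, was at 463 against 99.0 CPM, and Nat8f4, of the N-acetyltransferase 8 family, at 227 against 47.0. Tmod4, a tropomodulin that caps actin filaments, was at 102.4 against 19.8 CPM, and Bmp7, a growth factor of the TGF-beta family, at 42.7 against 8.10. Lrrc57, a leucine-rich repeat gene, was at 740.1 against 157 CPM, and the genes 1700080E11Rik, 1700016H13Rik and 1700012A03Rik at 678, 1518 and 1749 CPM against 127, 310.0 and 339. The log2 ratios of these 11 genes lay between 2.16 and 2.41 in both libraries. The X-linked gene Gm614 was at 259 against 51.8 CPM in A0 and 247 against 50.8 in A10.

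The lowest ratios were led by a gene of meiotic cells. Pou5f2, a POU-domain factor of pachytene spermatocytes, was at 3.94 CPM in A0 members against 43.6 in the other cells and at 6.48 against 51.1 in A10, with log2 ratios of -3.17 and -2.80. Cdc42ep3, an effector of the GTPase Cdc42, was at 52.8 against 291 CPM in A0 and 66.4 against 323 in A10. Atxn7l3b was at 166 against 753 CPM and at 199 against 857. Dnah12, an axonemal dynein heavy chain, was at 17.7 against 79.1 CPM in A0, and Tchp, a keratin-binding protein of the centrosome, at 21.2 against 98.7. The others of the 10 lowest were Slc25a54, Rnls, Them4, Speer1 and Emx2, with A0 log2 ratios between -2.24 and -2.11 and A10 log2 ratios between -2.38 and -2.14. Speer1 belongs to a family of near-identical genes, and how reads shared with its relatives were counted was not tested, so its values are uncertain.

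The gene lists for the parts of the developing sperm are given as medians of these log2 ratios over the genes that passed the 5% filter, next to the median of all 9352 genes (-0.79 and -0.93). Of all 9352 genes 6.7% were at least 2-fold higher and 37.5% lower in both libraries, and a list whose shares are near these does not stand apart. A list holds genes of one role; passing genes may have passed through the cells where they are high, so the counts describe only. The late spermatid list had the highest median, 1.41 in A0 and 1.52 in A10. Of its 24 genes 18 were at least 2-fold higher in both libraries and 0 were lower. Spem1, which is needed to shed spermatid cytoplasm, was at 1018 against 221 CPM in A0 members and other cells. Smcp, the cysteine-rich protein of the mitochondrial capsule, was at 11698 against 2870 and Cabs1, a calcium-binding protein of the tail, at 1862 against 485. Meig1, needed for the manchette, gave the lowest ratio of the list (-0.56 and -0.45).

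Among the outer dense fibre genes, 2 of 8 were higher in both libraries, Odf1 itself, which the rule used, and Odf3b, at 54.1 against 15.7 CPM in A0. Odf2, another main protein of the fibres, was at 4274 against 2257 CPM in A0 and 3780 against 2086 in A10, under the 2-fold line. Odf4 (249 against 261 CPM) and Odf3 (149 against 182) were near the level of the other cells, and Odf3l1 and Spag5 were at least 2-fold lower. So the genes of this structure did not stand at one ratio in the members. The list median was 0.13 in each library, 0.92 and 1.06 above that of all genes. Without Odf1 the middle gene of the list is Odf4, at -0.07 in A0 and -0.11 in A10. The sign of the median thus rests on Odf1, which the rule used.

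The fibrous sheath list divided likewise, with 3 of 13 genes higher and 5 lower in both libraries and a median of 0.08 and 0.12. Akap4, the main scaffold of the sheath, was at 1558 against 627 CPM in A0 and 1457 against 539 in A10. Gapdhs, the sperm glyceraldehyde-3-phosphate dehydrogenase bound to the sheath, was at 2946 against 928 in A0. Akap3, another gene of the sheath list, was at 416 against 394 CPM, and Fsip2 at 91.4 against 279. The list median was below 0 in both libraries with 500 cells per library, with thinned cells and with per-cell means, so its sign is not stable.

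Of the 8 testis-specific serine kinase genes, 3 were higher and 2 lower in both libraries, with a median of 0.81 in each. Tssk6, which the rule used, is 1 of the 3. Tssk3 was at 960.3 against 285 CPM in A0 and 849.5 against 261 in A10. Tsks, a substrate of the kinases, was at 769 against 345. Tssk2 was at 1656 against 885 CPM, just under the 2-fold line (0.90 and 0.91), while its neighbour Tssk1 was at 546 against 640.4 (-0.23 and -0.21). Tssk4 was lower in members, at 90.5 against 185 CPM in A0 and 61.8 against 164 in A10, and Tssk5 was at 9.90 against 27.4. Without Tssk6, the log2 ratios of the family in A0 ran from 1.75 for Tssk3 to -1.38 for Tssk5.

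Nuclear compaction genes had a median of 0.32 and 0.36 over 16 genes, 7 of them higher and 5 lower in both libraries. Prm1 was at 40351 against 10340 CPM in A0 and 58406 against 14015 in A10. Tnp1 and Tnp2, the transition proteins, were at 12259 and 19103 CPM in A0 members against 4182 and 6692. H2afb1, a short histone H2A variant, was at 1291 against 350.2 CPM and H1fnt, a testis linker histone, at 1734 against 711. The list also holds lower genes, among them Tbpl1, a TBP relative of round spermatids, at 251 against 923. With Prm1, Prm2, Tnp1 and Tnp2 left out of both the total and the list, the median of the remaining genes was -0.21 in A0 and -0.37 in A10, so the sign rests on these 4 genes.

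Acrosome genes had 0 of 36 higher and 16 lower in both libraries, and a median of -0.98 and -1.08, close to the median of all genes. Acrv1 was at 80.6 against 160.0 CPM in A0 and 65.0 against 147 in A10, Spaca1 at 160 against 406 in A0, and Zpbp2, which binds the zona pellucida, at 186 against 726. The highest ratios of the list were those of Izumo2 (0.84 and 0.88) and Spaca9, at 1297 against 782 CPM (0.73 and 0.83). The sperm surface ADAM genes, with 0 of 23 higher and 10 lower in both, had a median of -0.99 and -1.07, likewise close to all genes. Ion channel and exchanger genes gave 0 higher and 10 lower of 18 in both libraries, with a median of -1.15 and -1.18 against -0.79 and -0.93 for all genes. Catsper2, a pore subunit of the sperm calcium channel, was at 74.6 against 272 CPM in A0. Atp1a4, the sperm sodium pump, was at 302 against 156 CPM in A0 and at 283 against 121 in A10, where it was 2-fold higher (0.94 and 1.22).

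Axoneme genes stood further down, with 0 of 48 higher and 35 lower in both libraries and a median of -1.44 and -1.56, which is 0.65 and 0.63 below that of all genes. Dnah8, a dynein heavy chain, was at 170 against 713 CPM in A0 and 171 against 695 in A10, and Ccdc40, needed to dock dynein arms, at 7.58 against 42.9 in A0. Cfap69 had the highest ratio in A0 (0.03) and Tekt5, a tektin of the tail microtubules, in A10, at 85.0 against 93.6 CPM in A0 and 82.4 against 77.2 in A10. Manchette and head-tail junction genes divided, with 5 of 35 higher and 13 lower in both. Hook1, a linker of the manchette, was at 916 against 348 CPM in A0, Oaz3, the antizyme of late spermatids, at 5920 against 1532 and Ccdc42 at 39.6 against 144. Their median was -0.55 in each library, which is 0.25 and 0.38 above that of all genes. The mitochondrial sheath list had 3 of 17 higher and 8 lower in both, with Spata18 at 1209 against 287 CPM and Gk2, a glycerol kinase, at 191 against 680.4, and a median of -0.67 and -0.79.

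**Figure D3:**
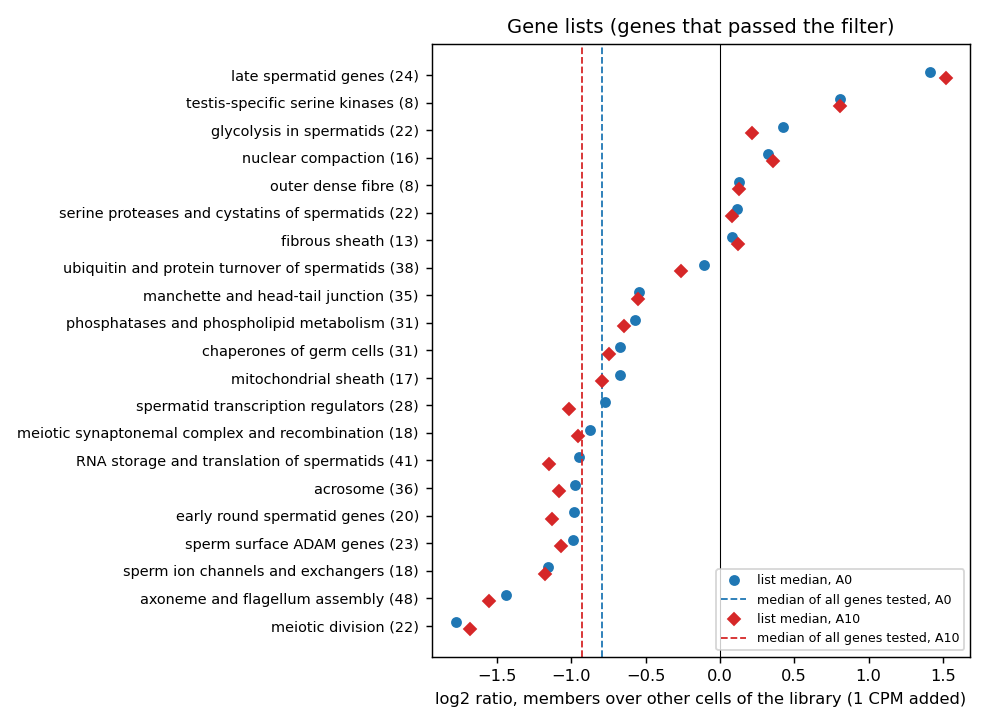
Median log2 ratio of members over the other cells of the library (x axis, 1 CPM added) for 21 gene lists (y axis, with the number of genes that passed the filter), for A0 (circles) and A10 (diamonds); dashed lines mark the medians of all genes tested, -0.79 and -0.93. The late spermatid list lies farthest right (1.41 and 1.52) and meiotic division farthest left (-1.77 and -1.68).

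Glycolysis genes had a median of 0.42 and 0.22, with 5 of 22 higher and 7 lower in both libraries. Besides Gapdhs, Gpi1, glucose-6-phosphate isomerase, was at 371 against 116 CPM in A0, and Pgk2, the testis phosphoglycerate kinase, at 1122 against 554. Ldhc, the testis lactate dehydrogenase, was lower at 3916 against 8069 CPM, and Slc2a3, a glucose transporter, was at 59.9 against 229.9. The chaperones gave 2 of 31 higher and 12 lower in both, Dnajb8 at 2180.2 against 519.8 CPM and Hspa1l at 211 against 55.8 on one side and Hspa2 at 282 against 886 on the other. Their medians of -0.67 and -0.75 were 0.12 and 0.18 above that of all genes.

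Of 38 ubiquitin and turnover genes, 9 were higher and 7 lower in both libraries, with a median of -0.11 and -0.26. Neurl1a, which the rule used, is 1 of the 9. Otub2, a deubiquitinase, was at 1450.4 against 486 CPM in A0, Ube2j1, a conjugating enzyme of the endoplasmic reticulum, at 1429 against 547, and Psma8, the meiotic proteasome subunit, at 45.6 against 147. The relatives of Neurl1a were barely seen, Neurl2 at 0.606, Neurl3 at 0.101 and Neurl4 at 2.73 CPM in A0 members. Phosphatase and phospholipid genes gave 3 of 31 higher and 11 lower in both libraries, near the shares of all genes, with a median of -0.57 and -0.65. These 3 were Phospho1, which the rule used, Ppp2r2b and Plcz1, the sperm phospholipase that activates the egg, at 328 against 153 CPM, while Phospho2 was lower at 160.3 against 631. Serine proteases and cystatins gave 6 of 22 on each side in both libraries, with a median of 0.11 and 0.08, among them Cst12 at 49.7 against 16.1 CPM and Prss43 at 7.78 against 43.1. Counted from the median of all genes, the manchette, mitochondrial sheath, chaperone, ubiquitin and phosphatase lists change from below to above 0.

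RNA storage genes gave 2 of 41 higher in both libraries and 20 lower, with a median of -0.95 and -1.15. The higher genes were Mex3d, which the rule used, and Paip2, a repressor of the poly(A)-binding protein, at 1296 against 595 CPM. Pabpc6, a poly(A)-binding protein, was at 62.5 against 301 CPM and Ybx2, the Y-box protein that keeps stored transcripts from translation, at 508 against 844. Among the transcription regulators 1 of 28 was higher, Jund, at 86.2 against 39.2 CPM, and 11 were lower in both libraries, near the shares of all genes, with a median of -0.78 and -1.01. Crem was at 240.5 against 476 CPM in A0 and 186 against 438 in A10. The early round spermatid list, with Spert at 1281 against 513 CPM as its highest gene, had a median of -0.98 and -1.13. Of its 20 genes 2 were higher and 9 lower in both libraries.

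Meiotic division genes had the lowest median, -1.77 and -1.68, with 0 of 22 higher and 20 lower in both libraries. Aurka, a spindle kinase, was at 51.2 against 245 CPM in A0 and Cdk1 at 18.6 against 69.9. Synaptonemal and recombination genes gave 1 of 18 higher and 7 lower in both, with a median of -0.88 and -0.95. Syce2, a central element protein of the complex, was the higher gene, at 944 against 379 CPM in A0 and 927 against 352 in A10. Spo11, which makes the meiotic breaks, was at 7.17 against 29.0.

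The label was checked on markers of the cell types a testis holds. Of 9 spermatid markers 5 were at least 2-fold higher in members of each library, and the marker sum was 136011 CPM against 36613 in A0 and 167329 against 42180 in A10. The 5 were Prm1, Prm2, Prm3, Tnp1 and Tnp2. Spaca1 was at least 2-fold lower in both libraries, and Acrv1 was so in A10 (log2 ratio -0.98 in A0 and -1.17 in A10). The members are thus called spermatids on genes of the later steps. Spermatocyte markers summed to 391 against 913 CPM in A0 and 344 against 963 in A10, with 6 and 8 of 11 lower. Dmc1, a recombinase of early prophase, was higher instead, at 3.74 against 0.646 CPM in A0 and 2.24 against 0.739 in A10. Spermatogonia markers had a sum of 59.9 against 52.0 CPM in A0 and 51.4 against 55.9 in A10. Of these 9 markers 3 were at least 2-fold higher in A0 members (Stra8, Uchl1 and Dmrt1) and 2 in A10 (Stra8 and Uchl1), while Id4 was 2-fold lower in A10. Uchl1 was at 17.6 against 6.35 CPM in A0 and 15.2 against 6.20 in A10.

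Markers of somatic cells differed by type. Leydig markers summed to 5.25 against 8.05 CPM in A0, where members held 52 UMIs with at most 4 in a cell. In A10 they summed to 15.4 against 9.73 CPM, and 95 of the 131 UMIs in members came from 1 cell. Endothelial markers summed to 4.04 against 4.45 CPM in A0 and 3.07 against 3.99 in A10, with 1 of 5, Kdr, at least 2-fold lower in A10. Peritubular myoid markers summed to 4.95 against 3.29 CPM in A0 and 3.54 against 2.96 in A10, with 1 of 5, Myh11, at least 2-fold higher in A0 (3.33 against 0.610 CPM). Sertoli markers summed to 85.9 against 33.4 CPM in A0 and 113 against 42.7 in A10, mostly from Cst12 and from Clu at 19.5 and 25.1 CPM, and Amh was at 0. Of these 7 markers Cst12 was at least 2-fold higher in both libraries, Amhr2 in A0 (11.0 against 4.62 CPM) and Clu in A10 (25.1 against 11.5). Macrophage markers summed to 42.0 against 11.0 CPM in A0 and 38.9 against 9.10 in A10. Of 7 macrophage markers 1 was high, C1qb, a chain of complement C1q, at 39.9 against 7.82 CPM in A0 and 37.8 against 7.97 in A10. C1qb had a UMI in 38.6% and 34.4% of members and in 4.37% and 3.98% of the spermatocyte set, while C1qa stood at 0.808 and 0.354 CPM, C1qc at 0.303 and 0, and Csf1r at 0 in members of both libraries. The part of these somatic markers in the other results was not tested.

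The share of UMIs from Prm1, Prm2, Tnp1 and Tnp2, which climbs in spermatids as the nucleus condenses, was high in most members but not in them alone. It had a median of 15.1% in A0 members (lowest to highest cell 0.518 to 23.9) and 17.9% in A10 members (lowest to highest cell 0.411 to 28.1). In the other cells the median was 0.832% and 1.12%. Under 3% lay 32 members of A0 (4.57%) and 24 of A10 (3.43%), against 70.3% and 68.7% of the other cells. Binned by this share, the cells that were members made up 0.248% of A0 cells under 1%, 15.9% of those from 6 to 10% and 34.5% of those at 22% or more. In A10 the same bins held 0.189%, 10.6% and 34.4%. A share of 10% or more was found in 514 A0 and 583 A10 members and in 1325 and 1698 other cells, so most cells at such shares were no members.

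Members were next divided into 4 groups of 175 cells in order of the protamine share, with medians of 5.90, 12.8, 16.9 and 20.6% in A0. From the lowest to the highest group, Odf1 stood at 399.7, 344, 307 and 236 CPM in A0 and at 377, 334, 305 and 279 in A10, so it was lower at each step. Tssk6 went the other way up to the third group of A0, at 1437, 1873, 2529 and 1985 CPM. In A10 it was at 1297, 2033, 2054 and 1924 CPM. Mex3d was at 226, 220.2, 152 and 147 CPM and Neurl1a at 42.7, 36.2, 21.96 and 21.7 in A0, while Clmn stayed between 121 and 146 and Phospho1 between 155 and 234. The members were chosen on the mean of these 6 genes, and that score was nearly level over the protamine share (Spearman correlation of -0.09 in A0 and -0.01 in A10). A fall of 1 of the 6 across the groups is therefore tied by the choice of cells to a rise of another, and these profiles are a description only.

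Genes outside the rule also differed between these groups. Spaca1 was at 343, 127, 44.4 and 36.7 CPM in A0 and at 262, 79.4, 51.3 and 39.9 in A10. Sycp3, a synaptonemal complex gene, was at 192, 72.4, 25.3 and 16.4 CPM in A0, and Lyar, a nucleolar protein gene, at 2298, 556, 239 and 179.9. Tssk1 was highest in the second group (616, 802, 470.3 and 197 CPM), as was Hils1, a spermatid linker histone (1616, 2561, 1441 and 911), whereas Tssk3 was highest in the third (618, 939, 1371 and 1093). Median UMIs per cell were 15557, 12027, 10346 and 10427, and genes at 5000 UMIs per cell 2109, 1669, 1340 and 1312. Depth thus moved with the protamine share, and its part in these profiles was not tested, though CPM is scaled to the total. Summed per cell, the RNA storage list had a Spearman correlation with the protamine share of -0.80 in A0 and -0.78 in A10, the axoneme list -0.75 and -0.74 and the late spermatid list 0.66 and 0.59, over 700 cells of 1 library that share a total with the protamine genes.

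**Figure D4:**
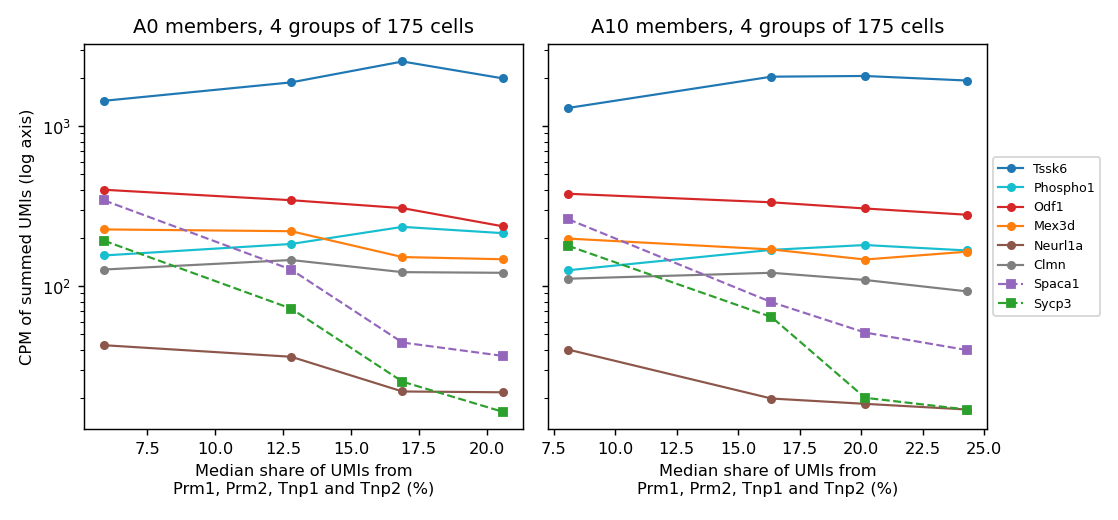
Level in CPM of summed UMIs (y axis, log scale) of the 6 genes (solid lines) and of Spaca1 and Sycp3 (dashed lines) in 4 groups of 175 members, placed at the group's median share of UMIs from Prm1, Prm2, Tnp1 and Tnp2 (x axis, percent), for A0 (left) and A10 (right). Odf1 is lower from each group to the next in both libraries, within cells chosen on the mean of the 6 genes, which ties their profiles to each other, and Spaca1 goes from 343 to 36.7 CPM in A0 and from 262 to 39.9 in A10.

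A small number of members carried genes of the entry into meiosis. At least 2 UMIs of Stra8, Dmc1, Prdm9, Meiob, Dmrt1 and Sall4 together were found in 50 A0 members (7.14%, 5.35 to 9.31) and 23 A10 members (3.29%, 2.09 to 4.89), against 1.91% and 1.47% of the other cells. At 5000 UMIs per cell the shares were 2.57% and 1.57% in members and 0.364% and 0.289% in the other cells. Stra8, the gene induced by retinoic acid before meiosis, was at 9.90 CPM in A0 members and 0.667 in the other cells, and at 6.37 and 1.14 in A10. These members had a median protamine share of 8.11% and 9.79% and a median of 13885 and 9466 UMIs, and of the 50 in A0, 29 lay in the lowest group by protamine share and 0 in the highest. Scrublet, which scores cells for likeness to simulated doublets, marked 80 A0 members (11.4%) and 74 A10 members (10.6%), against 8.13% and 8.68% of all cells of each library. Marked members had a median protamine share of 8.38% and 10.5% and a median of 21857.5 and 18075.5 UMIs. They were kept, and the part of doublets in these values was not tested. Without the 80 A0 and 47 A10 members that had under 3% protamine UMIs or at least 2 early meiotic UMIs, the late spermatid list median was 1.51 and 1.56, and the counts of genes over the other cells stayed within 1.5 times of those above.

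X-linked genes took 1.33% and 1.39% of the members' UMIs and 0.869% and 0.847% of those of the other cells. The X chromosome is silenced in male meiosis and stays largely quiet in round spermatids. Of 253 X-linked genes tested, 44 were at least 2-fold higher in members of both libraries and 43 lower, with a median of -0.12 and -0.08. Over all 9352 genes these shares were 6.7% higher and 37.5% lower in both libraries, with medians of -0.79 and -0.93, so X-linked genes stood above the median gene. Besides Gm614, Tspan6, a tetraspanin, was at 444 against 122 CPM, Gm6760 at 979.9 against 273 and Gm9112 at 34.2 against 8.29 in A0. Of 11 Y-linked genes 0 were higher and 6 lower in both libraries, with a median of -1.05 and -1.14.

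In all, 3 other sets of 700 cells per library, chosen in the same way on Spam1 and Tssk5, on Dyrk4 and Cd46, and on the protamine genes with Car2, were set beside the members. Cells shared with a set were left out of both sides. The Spam1 and Tssk5 set shared 4 A0 and 7 A10 cells with the members, the Dyrk4 and Cd46 set 28 and 38, and the protamine and Car2 set 194 and 198 (27.7% and 28.3%). Median protamine shares in A0 were 0.832%, 5.18% and 19.7% in these sets in that order. The members left beside them stood at 15.2%, 15.3% and 12.6%, and the share of the protamine and Car2 set is high by the way it was chosen. All these sets were chosen on expression, so the ratios between them are descriptions with no test.

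Against the Spam1 and Tssk5 set, 1086 of 9014 genes (12.0%) were at least 2-fold higher in members of both libraries and 2851 (31.6%) lower. Counted from the median of all genes (-0.56 and -0.64), the counts were 1821 and 1164, and the share of calls that were higher went from 27.6% to 61.0%. The highest ratios were those of 1700080E11Rik (682 against 39.5 CPM in A0), Ccdc168 (129 against 6.77), Nqo2 (277 against 20.1), Cyp2a12 (118 against 8.30) and Lexm (133 against 9.56). At the other end stood Slc39a12, a zinc transporter gene (4.18 against 46.7), Mroh9, Dopey2, Fgb and Prr27 (40.5 against 332). Tssk6 was at 1905 against 187 CPM and Odf1 at 331 against 154 in A0. The late spermatid list had a median of 2.002 and 1.91, with 18 of 24 genes higher in both libraries and 0 lower. The acrosome list, which holds Spam1, a gene that chose that set, had a median of -1.58 in each library, with 0 of 36 higher and 24 lower.

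Against the Dyrk4 and Cd46 set, 394 of 8912 genes (4.42%) were higher in both libraries and 1473 (16.5%) lower. From the median of all genes (-0.17 and -0.25) the counts were 748 and 1055, so the share that were higher went from 21.1% to 41.5%. Leaving the protamine and transition protein genes out of the total gave 608 and 1231, or 33.1%. Tmod4 (105.7 against 18.6 CPM in A0), Bmp7 (44.6 against 7.76) and Apoe, apolipoprotein E (133 against 29.8), were among the highest, with Topbp1 and Rpl39. Nim1k, a kinase gene (6.75 against 91.5), and Rad21, a cohesin subunit (17.8 against 156), were among the lowest, with 4930548H24Rik, 4930513O06Rik and Gm14151. The early round spermatid list, which holds Dyrk4 and Cd46, had a median of -1.90 and -1.89, with 0 of 20 genes higher in both libraries and 13 lower. For the late spermatid list it was 0.76 and 0.79, with 8 of 24 higher and 1 lower. The meiotic division list had a median of 0.62 and 0.40, with 2 of 20 genes at least 2-fold higher in both libraries and 0 lower.

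Against the protamine and Car2 set, 3706 of 8436 genes (43.9%) were higher in members of both libraries and 12 (0.142%) lower. From the median of all genes (1.04 and 0.99) the counts turn to 457 and 962, so the share that were higher went from 99.7% to 32.2%. The higher genes were led by Pnisr (21.9 against 0.709 CPM in A0), Dazl, an RNA-binding protein of germ cells (57.7 against 4.61), Ppig, Iqcb1 and Bod1l. The lower genes were led by Cypt14, Tex37 (619.8 against 1773 in A0), Hmgb4, a high mobility group protein of spermatids (2810 against 7386), Cyp2a12 and Defb33. Tssk6 hardly differed, at 1883 against 1630.0 CPM in A0 and 1752 against 1641 in A10, while Odf1 was at 359 against 115 and 348 against 134, and Neurl1a at 34.6 against 8.34 and 27.9 against 8.45. In A0, Phospho1 and Tssk6 had the highest of the 6 log2 ratios against the Spam1 and Tssk5 set (3.58 and 3.34), and Neurl1a and Odf1 the highest against the protamine and Car2 set (1.93 and 1.63). In A10 the highest against the protamine and Car2 set was Clmn (1.72), followed by Neurl1a (1.61) and Odf1 (1.36). The RNA storage list had a median of 1.61 and 1.52, with 29 of 41 genes higher in both libraries, and the acrosome list 1.35 and 1.18, with 22 of 36 higher. The late spermatid list had a median of -0.21 and -0.16, with 0 of 24 higher and 3 lower. It holds Prm1, Prm2, Tnp1, Tnp2 and Car2, the genes that chose that set, so these values are tied to the choice.

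Finally, members of A10 were compared with members of A0, the question being whether AOS changed these spermatids. With 1 library of pooled mice per group, treatment and library cannot be told apart, and no p-value is given. Of 7939 genes seen in at least 5% of members of either library, 7 (0.0882%) were at least 2-fold higher in A10 and 14 (0.176%) at least 2-fold lower. These counts depend on the choice of cells and genes: they were 9 and 77 with 500 cells per library, 7 and 31 with the A0 limit in both libraries, 19 and 53 with no filter and 0 and 0 with a filter at 20% of cells. The median gene stood at -0.12 in members and at -0.03 in the other cells. Counted from the median the calls were 9 higher and 7 lower, so the share that were higher went from 33.3% to 56.2%, and without the protamine and transition protein genes in the total they were 8 and 12, or 40.0%. In the other cells of the 2 libraries 3 of the same genes were 2-fold higher and 3 lower. The other cells summed to 1.41e+08 UMIs in A0 and 1.35e+08 in A10, far more than the members, and the genes were filtered on members. The counts of members and of other cells are thus not at equal precision.

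The 6 genes of the rule chose the same number of cells in each library, so their ratios are given as a description and say nothing on AOS. Odf1 gave a log2 ratio of -0.01, Tssk6 -0.09 and Mex3d -0.16. Clmn was at -0.25, Phospho1 at -0.29 and Neurl1a at -0.33. Counted from the median of all genes, Odf1 was at 0.11 and Tssk6 at 0.03, so their sign turns, while the other 4 stayed below 0. The limit for membership was lower in A10, and with the A0 limit applied to both libraries the ratios were 0.06 for Odf1, -0.09 for Clmn and -0.19 for Neurl1a.

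Protamine and transition protein genes were higher in A10 both in members and in the other cells, and none reached 2-fold. Prm1 gave a log2 ratio of 0.53 in members and 0.44 in the other cells, Prm3 0.39 and 0.33, and Prm2 0.09 and 0.07. Tnp1 gave 0.50 in members and 0.29 in the other cells, Tnp2 0.27 and 0.08, and Hmgb4 0.30 and 0.06. Among the gene lists 0 genes were called in either direction, and list medians lay between -0.22 for the ADAM genes and 0.04 for nuclear compaction. In the same comparison over the other cells they lay between -0.17 and 0.07.

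Gss, glutathione synthetase, had the highest ratio, at 3.64 CPM (36 UMIs in 32 members) in A0 and 15.1 CPM (128 UMIs in 111 members) in A10. Its log2 ratio was 1.79 (interval of the UMI ratio with no CPM added 1.51 to 2.63), against 0.79 in the other cells. Speer1 was at 6.67 and 22.5 CPM, a log2 ratio of 1.62 in members and 1.77 in the other cells, with 26 of its 191 A10 UMIs in 1 member. Tap1, a peptide transporter of antigen presentation, was at 2.53 and 6.72 CPM and Ddx51, an RNA helicase, at 2.93 and 7.31 CPM, with log2 ratios of 1.13 and 1.08 in members and 0.26 and 0.15 in the other cells. 4933402N22Rik was at 7.17 and 15.7 CPM and BC029214 at 9.30 and 19.5 CPM, and LOC108167814 was counted 16 and 41 times. Fabp3, a fatty acid binding protein, was at 4.04 and 9.43 CPM, but 56 of its 80 A10 UMIs lay in 1 member and it had a UMI in 37 A0 and 24 A10 members. Its log2 ratio of 1.05 turned below 0 under 6 alternatives, to -0.28 with the A0 limit in both libraries and to -1.32 without Phospho1 in the score. These genes rest on at most 191 UMIs in a set of members, fewer than any of the 6 genes of the rule (215 or more).

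1600014C10Rik had the lowest ratio, at 9.80 CPM (97 UMIs in 85 members) in A0 and 1.18 CPM (10 UMIs in 10 members) in A10. Its log2 ratio was -2.31 in members and -2.24 in the other cells, so the difference ran through the whole library. Dapp1, a signalling adaptor, was alike in both sets, at -1.20 and -1.32. Arg2, the mitochondrial arginase, was at 6.16 and 1.53 CPM (-1.50 in members, -0.85 in the other cells) and Cd320, the transcobalamin receptor, at 13.2 and 4.60 (-1.35 and -0.90). Slc22a20, an organic anion transporter gene, was at 7.17 and 2.59 CPM (-1.19 and -0.79). A further 3 genes were lower in A10 members with little difference in the other cells. Tmem165, a Golgi protein, was at 9.40 and 3.42 CPM (-1.23 and -0.15), Sulf1, a heparan sulfatase, at 7.38 and 2.83 (-1.13 and -0.18), and Rrp1b, a nucleolar protein, at 6.26 and 2.36 (-1.11 and 0.11). They had 93, 73 and 62 UMIs in A0 members and 29, 24 and 20 in A10 members. All genes named for this comparison, higher or lower, were chosen on the ratio in members. That choice favours a smaller ratio in the other cells, and whether members and other cells differed in these ratios was not tested. With 10 CPM added before taking the ratio, 0 genes were called in either direction.

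**Figure D5:**
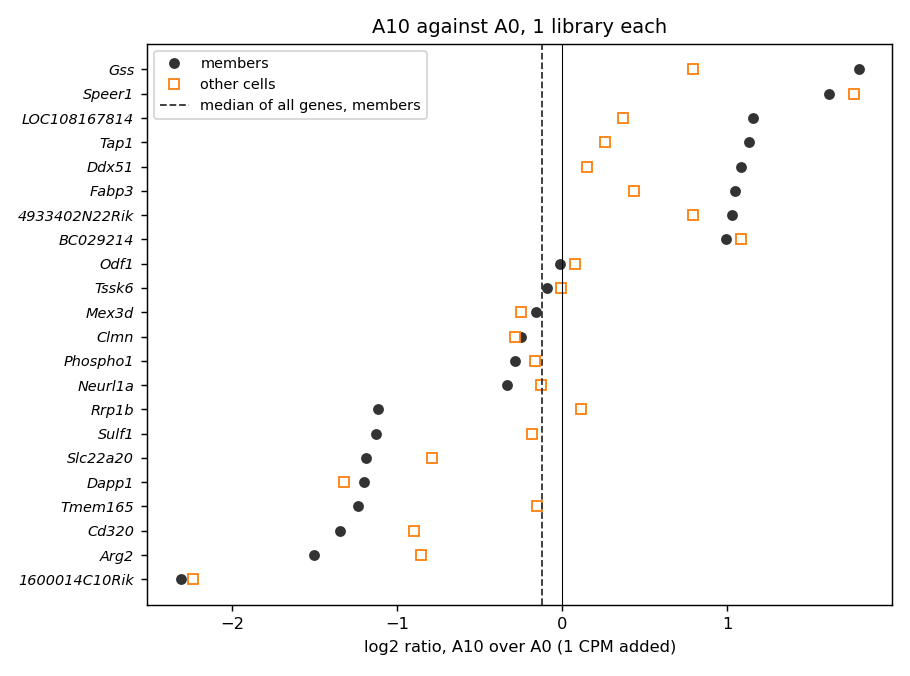
log2 ratio of A10 over A0 (x axis, 1 CPM added) in members (filled circles) and in the other cells (open squares) for the 6 genes of the rule and the 8 highest and 8 lowest ratios (y axis); the dashed line marks the median of all genes in members (-0.12). Speer1, Dapp1 and 1600014C10Rik have nearly the same ratio in members and other cells, whereas Gss, Ddx51, Tmem165 and Rrp1b do not. The 8 highest and 8 lowest were chosen on the ratio in members, and this choice favours a smaller ratio in the other cells.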

How the data were processed

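Single-cell libraries of 4 groups were deposited as 1 table, of which the A0 and A10 cells were used. Per the study's methods the authors counted UMIs with Cell Ranger 2.2.0 on mm10 and processed them, with a normalization, in Seurat. The deposited values have the form ln(1 + 10000 times a gene's share of the cell's UMIs). This form was read from the values, which sum to 10000 in every cell once the log is undone. The cell filters applied before deposit enter every value. UMIs were recovered from the values (100% whole within 0.001) for 18419 genes and 27060 cells, and 0 mitochondrial genes are listed. UMI counts were summed over the members and over the other cells of a library, scaled to 1000000 (CPM) and compared as log2 ratios with 1 CPM added, over genes seen in at least 5% of either set of cells. Called means at least 2-fold. Levels have exact Poisson intervals, ratios exact conditional binomial intervals without added CPM, and shares of cells Clopper-Pearson intervals at 95%, all for counting error only. With 1 library per group no test was run.

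Members totalled 9897210 UMIs in A0 and 8482560 in A10, which sets the precision of low genes. Outside the 6 genes of the rule, the text names the 15 highest and 10 lowest ratios of members over other cells (by the value nearer 0 of A0 and A10), the 8 highest and 8 lowest of A10 over A0, the 5 at each end against each of 3 other spermatid sets, and examples of 21 gene lists (their highest and lowest ratios and best covered genes). Profiles over the protamine share, the early meiotic genes, C1qb, the relatives of Mex3d and Neurl1a, and the X-linked genes were chosen after their values were seen. The members and lists were chosen with earlier results of these data known. Doublets were kept; Scrublet in scanpy 1.11.5 with an expected rate of 6% gave an alternative. Python 3.11.15, NumPy 2.4.6, SciPy 1.17.1, pandas 2.3.3 and matplotlib 3.10.9 were used. The ratios and their intervals were tested on simulated Poisson counts. That simulation had no spread between cells and no choice of cells on expression, so it did not test those steps. The alternatives were other numbers of cells, the A0 limit in both libraries, a score without each gene or on thinned cells, other summing, other filters, 10 CPM added, other totals and another centre of the ratios.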

Additional observations from a re-analysis of the deposited data

Results flagged for a closer look

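Rrp1b, a nucleolar protein gene, had a log2 ratio of members over other cells of 0.54 in A0 and -0.69 in A10, which are opposite directions in the libraries. The levels were 6.26 CPM (62 UMIs) in A0 members and 4.01 in the other cells, and 2.36 CPM (20 UMIs) in A10 members and 4.42 in the other cells. Rrp1b is also 1 of the 8 lowest ratios of A10 over A0 within members. Only named genes were screened for opposite directions, so the flag is tied to that choice and is no separate result. The difference was not tested, since each group was 1 library.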

How the results depend on the processing

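No paired analysis was possible because each group was 1 library, and no replicate could be left out. Alternatives with the protamine and transition protein genes out of the total, without the doubted members (under 3% protamine UMIs, or at least 2 early meiotic UMIs) and centred on the median of all genes were chosen after seeing the data. Counts are given as higher and lower in members, with the count of the report first; the cause of these shifts was not tested beyond the construction of each alternative. For A0 members over other cells (724 higher, 3720 lower), 10 CPM added gave 395 and 1759, centring 1746 and 395, and the score without Tssk6 2099 lower. For A10 (714 and 4368) the same alternatives gave 419 and 2042, 1857 and 184, and 2500 lower. Against the Spam1 and Tssk5 set (1086 and 2851), 10 CPM gave 558 and 1674, centring 1821 and 1164, the 20% filter 619 higher and the score without Tssk6 1844 lower. Against the Dyrk4 and Cd46 set (394 and 1473), 10 CPM gave 105 and 805 and a score on thinned cells 185 and 920; the higher count was 227 with 1000 cells, 593 with 500 cells, 608 without the protamine genes in the total, 748 centred, 166 with the 20% filter, 686 without Tssk6 in the score, 231 with thinned cells summed and 229 without the doubted members. Against the protamine and Car2 set (3706 and 12), the higher count was 1218 with 10 CPM, 457 centred, 1808 with the 20% filter and 2052 with thinned cells, and the lower count 28 without the protamine genes in the total, 962 centred, 4 without Odf1 and 25 without Tssk6 in the score and 5 without the doubted members.

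For A10 over A0 members (7 higher, 14 lower), 10 CPM and the 20% filter each gave 0 and 0, 1000 cells 4 and 8, and no filter 19 and 53. The higher count was 4 without Clmn, 3 without Mex3d and 3 without Phospho1 in the score. The lower count was 77 with 500 cells, 31 with the A0 limit, 7 centred, 24 without Neurl1a, 24 without Odf1, 22 without Phospho1 and 24 without the cells marked by Scrublet. The Fabp3 log2 ratio of A10 over A0 turned from 1.05 to -0.094 (1000 cells), -0.013 (500 cells), -0.28 (A0 limit), -0.21 (score without Mex3d), -0.25 (without Odf1) and -1.32 (without Phospho1), whereas 0 of the other 15 genes named in that comparison changed sign under any alternative run. The median depth of members (11863.5 UMIs in A0, 10127 in A10) was 12987 and 11001.5 without Tssk6 in the score, 11183 and 9791.5 without the marked cells, and 9633 in A10 without Odf1. Of the cells chosen, 67.0% in A0 and 62.7% in A10 were chosen again on thinned cells, and 80.3% or more in A0 and 78.6% or more in A10 on a score without any 1 of the 6 genes. Depth limits the named genes of A10 over A0, most of which had under 100 UMIs in the members of a library.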
